A study of Mus musculus with 12 samples.

Results

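The genes of potassium, sodium and calcium channels were read across RNA-seq libraries of cultured mouse muscle stem cells. They were chosen by name: gene symbols that begin with Kcn, with Scn and a digit, or with Cacna, Cacnb or Cacng, leaving out Cacna1s. The name rule found 103 of the 23586 rows of the gene table, and 47 of these reached a normalized count of at least 10 in at least 3 of the 12 libraries. The 47 comprised 26 of 73 potassium channel rows, 8 of 10 sodium channel rows and 13 of 20 calcium channel rows. A normalized count is here a gene's read count divided by its library's size factor, so that 1 read was worth 0.553 to 2.14 units depending on the library.

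The cells carried the Pax3nLacZ-IRES-GFP genotype, a reporter allele in which GFP marks transcription of the Pax3 locus, and flow cytometry split them into a fraction with GFP, labelled PAX3-positive, and a fraction without, labelled PAX3-negative. Each fraction was transfected with 2 µg of the pCR3-Six2 plasmid, which carries the mouse Six2 cDNA, or with the empty pCR3 plasmid, and all cells grew in medium with 20% fetal calf serum and 4 ng/mL basic FGF. This gave 4 groups of 3 libraries, called here GFP-negative control, GFP-negative SIX2, GFP-positive control and GFP-positive SIX2 after their labels. Every library was made by the SMART-Seq2 method from at least 50000 cells. The age of the mice is not given in the sources used here, and the labels leave unsaid whether libraries of 1 group are separate animals, cultures or repeats of 1 culture. The p-values below therefore reflect only how far these libraries spread, which may be technical.

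Voltage-gated channels open a pore in the membrane when its potential changes. Sodium and calcium channels then let positive charge in, which raises the action potential and, in muscle, is coupled to contraction, whereas potassium channels let charge out and set the resting potential. A pore-forming alpha subunit is joined by auxiliary subunits that govern its delivery to the membrane and its gating. In the muscle lineage, myoblasts become more negative inside as they begin to differentiate and fuse, and the calcium channel complex of skeletal muscle serves mainly as the voltage sensor for calcium release. The symbol rule reaches beyond voltage-gated pores: of the 26 potassium channel rows that passed, 10 were voltage-gated alpha subunits, 5 were opened by calcium or other ions, 4 were two-pore leak channels, 2 were inward rectifiers, 4 were auxiliary subunits, and 1, Kcnq1ot1, was an antisense long non-coding RNA rather than a channel.

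RefSeq (GRCm38.p6) held promoter windows, 250 bases before to 50 after an annotated start, for 32 of the 47 genes, 49 windows in all. Shown are windows of genes that passed the threshold in the same direction in both sorted fractions, 6 of the 7 windows for genes lower and 2 of the 5 for genes higher in the SIX2 libraries. The Scn4a window, which holds none of the motifs searched, is left out, and only 1 of the 4 Kcnk2 windows, at the start farthest upstream, is given. Capitals mark every match, on either strand, to the E-box CANNTG bound by myogenic basic helix-loop-helix factors, or to TCAGGTT, a core of the MEF3 site of muscle gene promoters.
Cacnb1 (chr11:98018323-98018622, minus strand): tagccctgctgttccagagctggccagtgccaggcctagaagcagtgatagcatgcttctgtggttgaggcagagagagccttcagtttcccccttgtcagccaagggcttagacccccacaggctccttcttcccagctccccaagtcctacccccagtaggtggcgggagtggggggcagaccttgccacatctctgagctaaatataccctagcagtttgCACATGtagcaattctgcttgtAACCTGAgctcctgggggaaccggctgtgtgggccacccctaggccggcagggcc
Cacnb1 (chr11:98022578-98022877, minus strand): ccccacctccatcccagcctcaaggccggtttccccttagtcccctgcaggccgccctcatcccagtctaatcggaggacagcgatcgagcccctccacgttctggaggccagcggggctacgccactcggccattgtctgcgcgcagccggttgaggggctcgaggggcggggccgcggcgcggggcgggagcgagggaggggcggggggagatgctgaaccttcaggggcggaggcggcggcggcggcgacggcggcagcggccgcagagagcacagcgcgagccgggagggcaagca
Cacng6 (chr7:3424412-3424711, plus strand): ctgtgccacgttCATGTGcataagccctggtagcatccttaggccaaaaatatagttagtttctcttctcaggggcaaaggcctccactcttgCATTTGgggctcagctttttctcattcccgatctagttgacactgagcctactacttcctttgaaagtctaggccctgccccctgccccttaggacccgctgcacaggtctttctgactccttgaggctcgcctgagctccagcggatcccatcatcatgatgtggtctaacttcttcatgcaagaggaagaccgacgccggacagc
Kcnc4 (chr3:107458849-107459148, minus strand): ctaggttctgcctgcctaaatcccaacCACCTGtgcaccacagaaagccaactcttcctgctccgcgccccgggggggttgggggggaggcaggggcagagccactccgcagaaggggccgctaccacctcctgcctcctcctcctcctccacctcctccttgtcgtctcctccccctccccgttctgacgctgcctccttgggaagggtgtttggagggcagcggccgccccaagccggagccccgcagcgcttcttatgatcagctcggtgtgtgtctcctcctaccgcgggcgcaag
Kcnf1 (chr12:17176839-17177138, minus strand): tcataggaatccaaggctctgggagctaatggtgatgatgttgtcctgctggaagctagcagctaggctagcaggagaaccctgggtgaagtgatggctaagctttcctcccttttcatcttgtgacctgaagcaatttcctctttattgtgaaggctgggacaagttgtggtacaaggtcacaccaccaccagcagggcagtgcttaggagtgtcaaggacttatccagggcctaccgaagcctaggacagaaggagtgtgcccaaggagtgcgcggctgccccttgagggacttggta
Kcnn3 (chr3:89519914-89520213, plus strand): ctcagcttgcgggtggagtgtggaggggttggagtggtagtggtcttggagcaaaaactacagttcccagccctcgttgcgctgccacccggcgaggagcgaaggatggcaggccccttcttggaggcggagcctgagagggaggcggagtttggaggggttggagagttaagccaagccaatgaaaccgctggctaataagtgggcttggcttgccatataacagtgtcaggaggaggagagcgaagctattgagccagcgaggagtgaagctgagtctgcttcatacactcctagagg
Kcnk2 (chr1:189402224-189402523, minus strand): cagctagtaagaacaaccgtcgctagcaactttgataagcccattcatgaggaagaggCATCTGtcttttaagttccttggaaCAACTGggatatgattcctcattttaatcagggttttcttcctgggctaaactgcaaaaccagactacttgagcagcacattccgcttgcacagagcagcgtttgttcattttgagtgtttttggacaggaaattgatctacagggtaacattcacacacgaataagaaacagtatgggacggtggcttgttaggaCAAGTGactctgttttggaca
Kcnk5 (chr14:20181733-20182032, minus strand): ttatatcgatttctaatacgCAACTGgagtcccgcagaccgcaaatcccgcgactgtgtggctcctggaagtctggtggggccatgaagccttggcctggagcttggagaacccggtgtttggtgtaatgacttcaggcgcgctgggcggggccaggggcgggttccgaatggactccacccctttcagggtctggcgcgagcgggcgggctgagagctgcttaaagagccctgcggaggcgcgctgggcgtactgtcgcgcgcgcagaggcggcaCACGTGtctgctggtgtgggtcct
An E-box match was present in 67.3% of the 49 windows in 64.0% of the 13644 windows of genes tested and in 72.3% of all 32851 promoter windows, all of the same length. The E-box form CAGCTG, which the first motif includes, was found in 16.3% of the 49, 15.7% of windows of genes tested and 16.3% of all windows. The MEF3 core was found in 2 of the 49 windows (4.08%) in 3.30% of windows of genes tested and in 4.07% of all windows. 1 of these 2 lay across the downstream start of Cacnb1, with its first base 5 bases before that start. The MEF2 core (CTA and TAG on either side of any 4 bases) was in 0 of the 49 windows, 3.20% of windows of genes tested and 3.69% of all windows. A match is a run of letters and no evidence of binding.

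Library depth ran from 12.4 to 47.3 M reads and was uneven between groups: 12.4 to 33.2 M for GFP-negative control, 34.0 to 40.2 M for GFP-negative SIX2, 31.3 to 47.3 M for GFP-positive control and 12.6 to 15.5 M for GFP-positive SIX2. The plasmid labels could not be checked from the targeted gene. Six2 read 4.28, 15.9 and 24.4 in the GFP-negative control libraries and 22.8, 23.7 and 19.2 in the GFP-negative SIX2 libraries. It read 5.35, 13.3 and 3.37 in the GFP-positive control libraries and 28.6, 23.4 and 6.51 in the GFP-positive SIX2 libraries. These ranges overlapped in both fractions, and neither difference passed the threshold (limma-trend adjusted p = 0.421 and 0.209). Pax3 did not separate the sorted fractions either, at 72.8, 68.2 and 73.2 in GFP-negative and 94.1, 62.5 and 59.9 in GFP-positive control libraries (adjusted p = 0.991). The muscle identity of the cells was plain, with Myod1 at 14410 to 19016, Myog at 70194 to 94515 and Des at 97424 to 183827 normalized counts. "SIX2" and "control" therefore name the plasmid label throughout.

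Among the channel genes, subunits of the skeletal muscle calcium channel complex dominated. Divided by the length of the gene's merged exons, mean levels over the 4 groups were 9479 normalized counts per kb for Cacng1, 1740 for Cacng6 and 1476 for Cacnb1. Below these, the potassium channel genes Kcnf1 and Kcnn3 stood at 398 and 199, the two-pore gene Kcnk13 at 349.8, the calcium gene Cacna2d1 at 340.2 and the sodium channel gene Scn4a at 175. In summed normalized counts, Cacng1 alone made up 26.8% to 30.4% of all member genes in each library. The sum over member genes was 45010 to 47979 in GFP-negative control libraries and 33008 to 34667 in GFP-negative SIX2 libraries. It was 46778 to 49205 in GFP-positive control libraries and 34908 to 37874 in GFP-positive SIX2 libraries, so that in both fractions every SIX2 library lay below every control library.

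**Figure D1:**
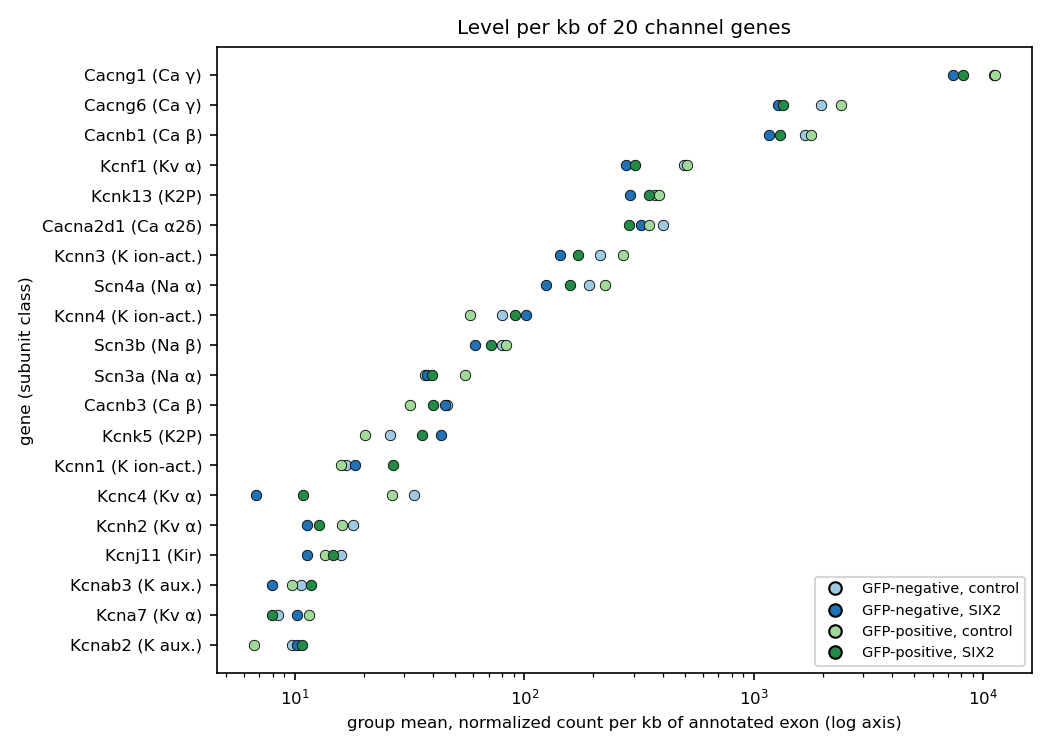
Mean normalized count per kb of merged exons for 20 channel genes of high level, on a log axis, with 1 mark for each of the 4 groups of 3 libraries. Cacng1 stands at 9479 averaged over the groups, above Cacng6 at 1740 and Cacnb1 at 1476.

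In the GFP-negative fraction, 12 channel genes were lower and 4 higher in the SIX2 than in the control libraries, and 31 did not pass the threshold (limma-trend on log2(normalized count + 1), Benjamini-Hochberg adjusted p under 0.05 over 14580 genes). Of all genes tested, 14.3% were called lower and 13.6% higher, so that 27.9% were called in either direction. In the GFP-positive fraction 8 channel genes were lower, 4 were higher and 35 did not pass, against 11.2% of all genes called lower, 12.1% higher and 23.3% in either direction. The median log2 change over the 47 genes was -0.24 in the GFP-negative and -0.13 in the GFP-positive fraction, beside medians of 0.00 and -0.01 over all genes. Cacna1b, Kcnk1 and Kcns3 passed the filter only through libraries of 1 label. They stay among the 47 throughout, and in these medians. 7 genes were called lower in both fractions (Cacnb1, Cacng1, Cacng6, Kcnc4, Kcnf1, Kcnn3 and Scn4a), 2 were called higher in both (Kcnk2 and Kcnk5), and 0 were called in opposite directions. The share of all genes called the same way in both fractions was not counted, so these counts stand without a background. These are bulk libraries, in which fewer cells of a type and less RNA per cell cannot be told apart.

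**Figure D2:**
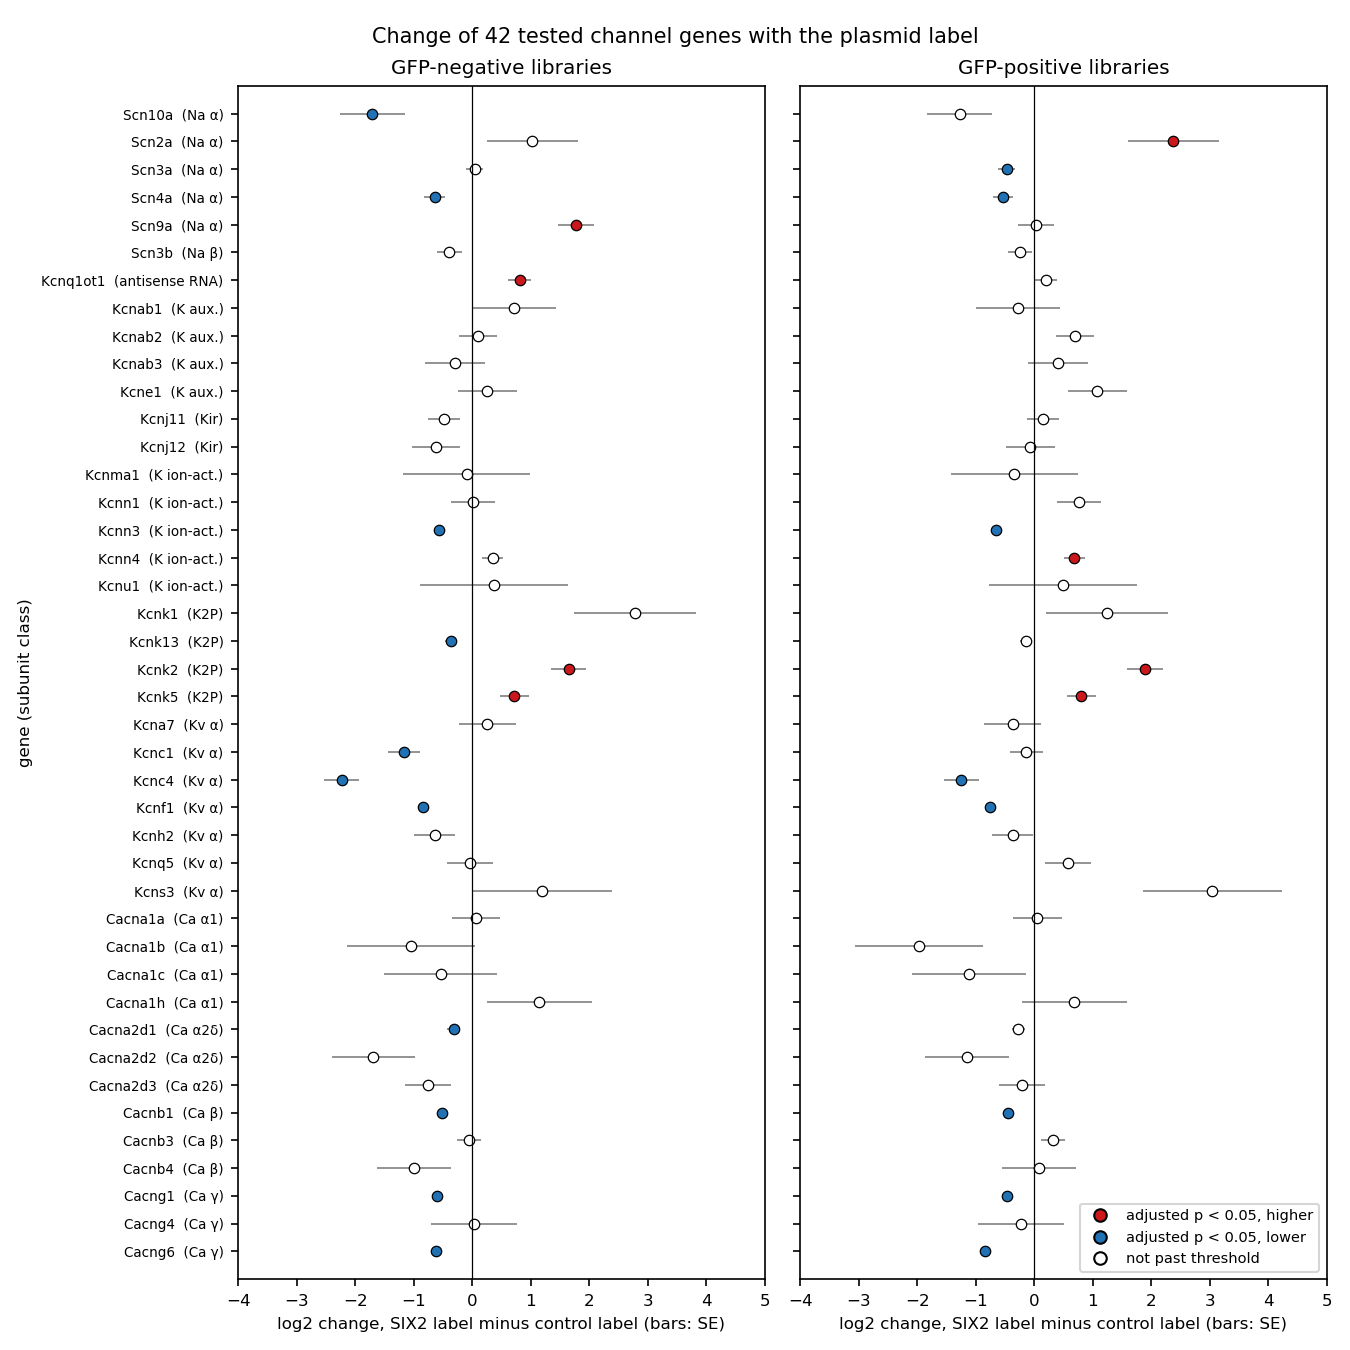
Log2 change, SIX2 minus control, of 42 channel genes that passed the filter, in the GFP-negative and GFP-positive fractions, with its standard error from limma-trend over 12 libraries. Of the genes drawn, 11 passed the threshold below zero and 4 above it in the GFP-negative fraction, and 8 and 4 in the GFP-positive fraction.

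The calcium channel genes held the calls with the smallest errors. Of 13 that passed the filter, 4 were lower with the SIX2 label in the GFP-negative fraction and 3 in the GFP-positive fraction, and 0 were higher in either. The share called was 30.8% and 23.1%, near the 27.9% and 23.3% of all genes called in either direction. Of all genes, 14.3% and 11.2% were called lower. The median log2 change of the 13 was -0.54 and -0.27. The 2 muscle gamma subunits and the beta subunit Cacnb1 were among those called in both fractions, while none of the 4 alpha1 pore genes that passed was called in either. Of these 4, Cacna1b passed the filter only through control libraries, though it is counted in the medians.

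Cacng1 (chr11:107703218-107716522, GRCm38) encodes the gamma1 subunit of the skeletal muscle L-type channel. It read 13672, 13633 and 14443 in the GFP-negative control libraries and 9328, 9426 and 8858 in the GFP-negative SIX2 libraries. In the GFP-positive fraction it read 14053, 13677 and 14319 in the GFP-positive control libraries and 10477, 9540 and 10639 in the GFP-positive SIX2 libraries. The control and SIX2 libraries did not overlap in either fraction, and the level fell to 0.661 times in GFP-negative and 0.728 times in GFP-positive cells. The log2 changes were -0.60 (SE 0.06, adjusted p = 1.06e-05) and -0.46 (SE 0.06, adjusted p = 7.42e-05) by limma-trend.

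Cacng6 (chr7:3424195-3435667) encodes the gamma6 subunit, which is also expressed in striated muscle. Its normalized counts were 3569, 3950 and 4083 in the GFP-negative control libraries and 2587, 2497 and 2503 in the GFP-negative SIX2 libraries. They were 4993, 4652 and 4520 in the GFP-positive control libraries and 2458, 2749 and 2718 in the GFP-positive SIX2 libraries. Again no SIX2 library reached the lowest control library of its fraction, and the log2 changes were -0.61 (SE 0.07, adjusted p = 4.95e-05) and -0.84 (SE 0.07, adjusted p = 4.73e-06). Cacnb1 (chr11:98001508-98023034) encodes the beta1 subunit that brings the skeletal muscle alpha1 subunit to the membrane. It read 7199, 7672 and 7836 in the GFP-negative control libraries and 5012, 5347 and 5471 in the GFP-negative SIX2 libraries, and 8046, 7807 and 8176 in the GFP-positive control libraries and 5913, 5863 and 5853 in the GFP-positive SIX2 libraries. The groups were apart in both fractions, with log2 changes of -0.52 (SE 0.05, adjusted p = 2.44e-05) and -0.45 (SE 0.05, adjusted p = 7.86e-05).

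Cacna2d1 encodes the alpha2delta1 subunit of the same complex. It read 4715, 5463 and 4796 in the GFP-negative control libraries and 3723, 4073 and 4209 in the GFP-negative SIX2 libraries, a log2 change of -0.32 (SE 0.11, adjusted p = 0.0457). That call sat close to the threshold and was lost without any 1 of the 6 GFP-negative libraries (adjusted p = 0.0624 to 0.171). The edgeR quasi-likelihood test on recovered reads also ended it (adjusted p = 0.0637). So did dropping the filter (adjusted p = 0.0655) and thinning all libraries to the smallest (adjusted p = 0.0838). The call was lost without GFP-positive SIX2 replicate 2 as well (adjusted p = 0.0548). In GFP-positive cells the libraries ranged from 3767 to 5306 in control and 3412 to 3769 in SIX2, which overlapped by a narrow margin, and the change of -0.27 did not pass (adjusted p = 0.0968).

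The skeletal muscle alpha1 gene Cacna1s, which the name rule leaves out, gives the pore to which these subunits belong. Its level was 12895, 12729 and 11993 in the GFP-negative control libraries and 7593, 7048 and 5789 in the GFP-negative SIX2 libraries, a log2 change of -0.89 (SE 0.11, adjusted p = 6.23e-05). In the GFP-positive fraction it was 13435, 14266 and 13134 in the GFP-positive control libraries and 7701, 8112 and 10268 in the GFP-positive SIX2 libraries, a change of -0.66 (SE 0.11, adjusted p = 0.000652). Cacna1s was thus lower in both fractions, as were its gamma1 and beta1 partners.

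The other calcium channel genes were near the floor of detection or did not pass. Cacnb3, a beta subunit of many tissues, ranged over 107 to 226 in the 12 libraries with log2 changes of -0.06 and 0.33. The L-type pore of heart and smooth muscle, Cacna1c, read 0 to 23.2, and the low-voltage-activated pore Cacna1h read 0.553 to 34.3. Cacna1a and Cacna1b, pores of neurons, read 11.0 to 29.3 and 0 to 27.2. Cacna1b reached a count of 10 in 4 libraries, all with the control label. It thus passed the filter only through the label in which it was high, and its changes are not read as results. Cacna2d2, Cacna2d3, Cacnb4 and Cacng4 ranged over 1.20 to 36.5, 10.2 to 34.3, 1.98 to 28.6 and 3.06 to 23.6, and none passed the threshold in either fraction. At these levels a standard error of 0.97 for Cacna1c and 0.71 for Cacna2d2 on the log2 scale left changes smaller than several-fold undetectable.

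**Figure D3:**
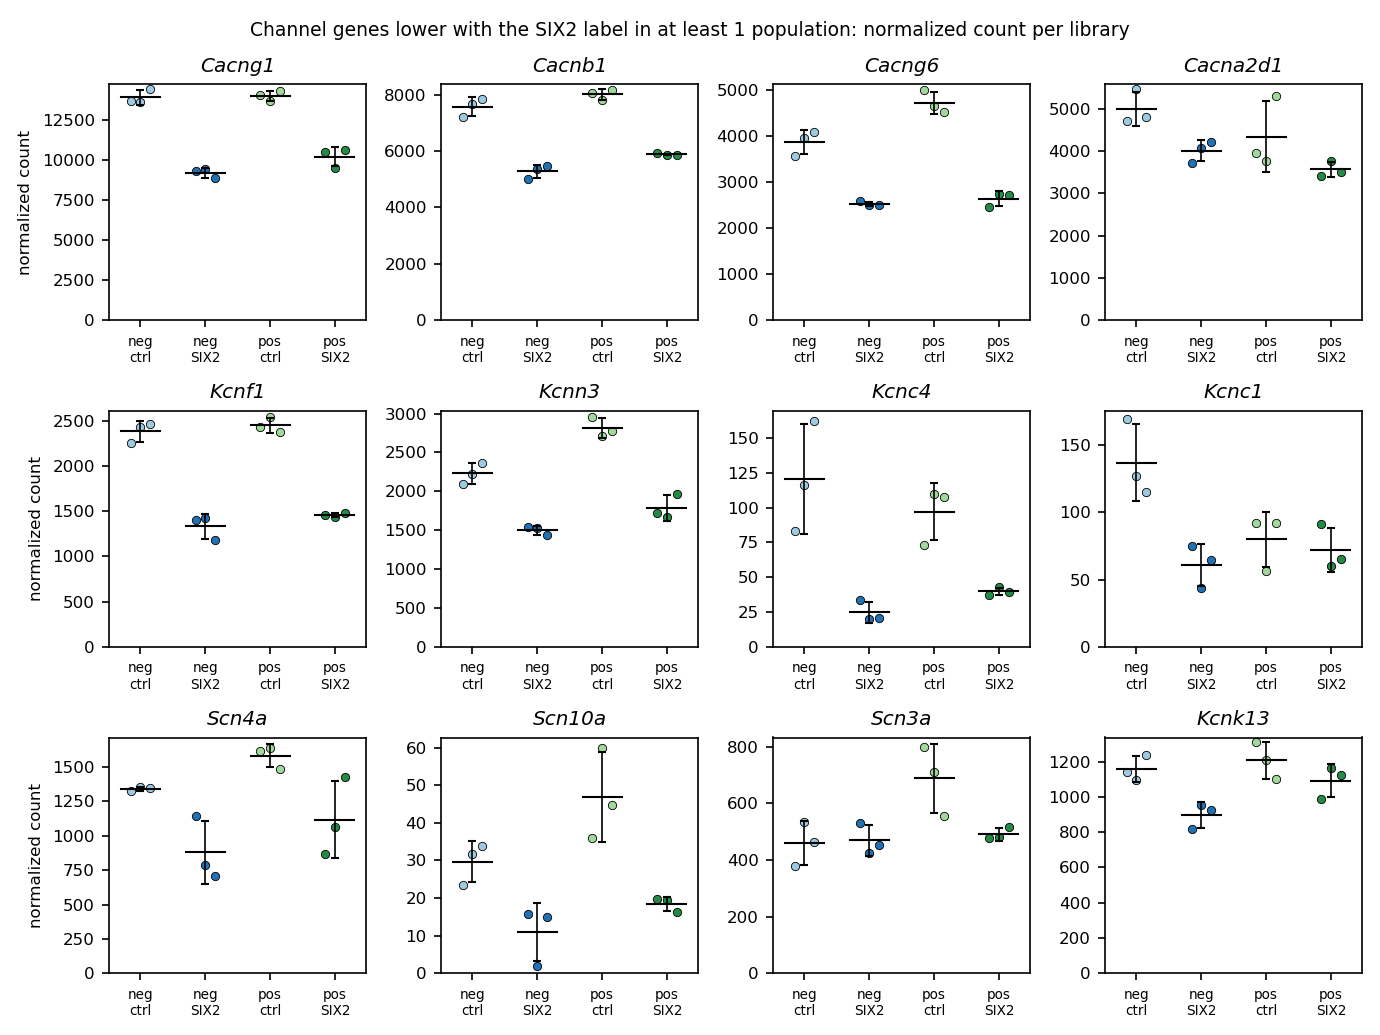
Normalized count in each library for 12 channel genes called lower with the SIX2 label in at least 1 fraction, with 3 points and the mean and SD for each of the 4 groups. For Cacng1 the SIX2 libraries lie between 8858 and 10639 and the control libraries between 13633 and 14443.

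Sodium channel genes moved in both directions. Of 8 that passed the filter, 3 were lower and 1 was higher in the GFP-negative fraction, and 2 were lower and 1 was higher in the GFP-positive fraction. The share called was 50% and 37.5%, beside 27.9% and 23.3% of all genes. The lower genes included the adult muscle pore Scn4a in both fractions. They also included pores known from neurons, Scn10a in GFP-negative and Scn3a in GFP-positive cells. The higher genes were low-level isoforms likewise known from neurons.

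Scn4a (chr11:106318592-106353288) encodes the sodium channel of adult skeletal muscle. It read 1328, 1353 and 1344 in the GFP-negative control libraries and 1142, 787 and 707 in the GFP-negative SIX2 libraries, and 1617, 1640 and 1487 in the GFP-positive control libraries and 868, 1062 and 1425 in the GFP-positive SIX2 libraries. Within each fraction every SIX2 library lay below every control library, but the SIX2 libraries varied widely among themselves. The log2 changes were -0.64 (SE 0.17, adjusted p = 0.0142) and -0.53 (SE 0.17, adjusted p = 0.0416). The GFP-negative call was lost without SIX2 replicate 2 (adjusted p = 0.0577) or replicate 3 (adjusted p = 0.0683). The GFP-positive call was lost in 14 of the 23 other settings, among them the edgeR test (adjusted p = 0.0551) and the omission of any GFP-positive library but SIX2 replicate 3 (adjusted p = 0.0600 to 0.161).

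Scn9a (chr2:66480080-66634962) encodes a pore known from sensory neurons. In GFP-negative cells it rose 3.42-fold, from 17.1, 14.3 and 17.8 in control to 52.1, 67.8 and 55.9 in SIX2 libraries, with a log2 change of 1.77 (SE 0.31, adjusted p = 0.000819). In GFP-positive cells it read 34.4, 33.8 and 26.2 with the control label and 42.9, 23.4 and 32.6 with the SIX2 label, ranges that overlapped, with a change of 0.03 (SE 0.31, adjusted p = 0.95). The GFP-negative change went from a level below that of both GFP-positive groups to a level above them. The exons of Scn9a share bases with a gene on the opposite strand whose reads cannot be told apart from its own.

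Scn10a, another pore of sensory neurons, read 23.6, 31.7 and 33.8 in the GFP-negative control libraries and 15.7, 1.98 and 15.04 in the GFP-negative SIX2 libraries. The change was -1.71 (SE 0.56, adjusted p = 0.035), but the SIX2 libraries included 1 value near zero, and without that library (replicate 2) it was -0.89 with adjusted p = 0.102 (0.0563 to 0.0960 without a control replicate). The call was also lost in edgeR (adjusted p = 0.0564), with only the compared libraries (adjusted p = 0.0648) and without the filter (adjusted p = 0.0645). After thinning all libraries to the smallest the change was -2.85. In GFP-positive cells the groups did not overlap, at 36.0, 59.8 and 44.7 against 19.7, 19.5 and 16.3, and the change of -1.27 did not pass (adjusted p = 0.119).

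Scn3a, a pore prominent in the embryonic nervous system, read 798, 711 and 557 in GFP-positive control and 477, 479 and 518 in GFP-positive SIX2 libraries. It was lower with the SIX2 label there by a log2 change of -0.47 (SE 0.15, adjusted p = 0.0366), a call lost without any 1 of GFP-positive control replicates 1 (adjusted p = 0.1498) and 2 (adjusted p = 0.102), or SIX2 replicates 1 (adjusted p = 0.0868) and 2 (adjusted p = 0.0936). It was also lost after thinning to the smallest library (adjusted p = 0.0767), with only the compared libraries (adjusted p = 0.0546) and without the filter (adjusted p = 0.0503). In GFP-negative cells it read 379, 534 and 463 with the control and 530.5, 426 and 452 with the SIX2 label, with a change of 0.04. Scn2a, a pore of the central nervous system, read 23.7, 1.66 and 0.844 in the GFP-positive control libraries and 33.9, 19.5 and 22.8 in the GFP-positive SIX2 libraries. Its log2 change of 2.38 (SE 0.78, adjusted p = 0.0407) was the largest rise among the channel genes called in that fraction. 1 control library lay within the SIX2 range, the change was 1.57 in edgeR (adjusted p = 0.207) and 1.55 in DESeq2 (adjusted p = 0.183), which both ended the call, and without control replicate 3 the change was 1.67 (adjusted p = 0.151). Leaving out control replicate 2 or any SIX2 replicate of that fraction also ended the call (adjusted p = 0.0706 to 0.138). Scn3b, a beta subunit gene whose product attaches to the pore, read 264 to 516 and did not pass in either fraction. Its log2 changes were -0.39 in GFP-negative and -0.24 in GFP-positive cells.

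Potassium channel genes also moved in both directions. In the GFP-negative fraction 5 of 26 were lower and 3 higher, and in the GFP-positive fraction 3 were lower and 3 higher. The share called was 30.8% and 23.1%, near the 27.9% and 23.3% of all genes. The lower genes included Kcnf1, Kcnc4 and Kcnn3 in both fractions. Of the genes that rose, Kcnk2 and Kcnk5 are two-pore leak channels and Kcnn4 is calcium-activated. The median log2 change of the 26 was -0.01 and 0.07, near that of all genes. Kcnk1 and Kcns3, which passed the filter only through SIX2 libraries, are counted in these medians.

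Kcnf1 (chr12:17172100-17176888) encodes an electrically silent alpha subunit that forms mixed channels with Kv2 pores. It read 2253, 2435 and 2462 in the GFP-negative control libraries and 1404, 1421 and 1177 in the GFP-negative SIX2 libraries, and 2432, 2541 and 2382 in the GFP-positive control libraries and 1456, 1438 and 1478 in the GFP-positive SIX2 libraries. The SIX2 and control libraries were widely separated, with log2 changes of -0.84 (SE 0.08, adjusted p = 1.07e-05) and -0.75 (SE 0.08, adjusted p = 2.54e-05).

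The Kv3 family, whose pores open and close fast, gave the largest fall. Kcnc4 (chr3:107438303-107459552) read 83.5, 117 and 162 in the GFP-negative control libraries and 33.6, 19.8 and 21.1 in the GFP-negative SIX2 libraries, a fall to 0.214 times and a log2 change of -2.23 (SE 0.30, adjusted p = 0.000128). In GFP-positive cells it read 73.4, 110.1 and 108 in the GFP-positive control libraries and 37.5, 42.9 and 39.1 in the GFP-positive SIX2 libraries, a change of -1.25 (SE 0.30, adjusted p = 0.00842). No library of one label overlapped the other in either fraction. Its relative Kcnc1 read 169, 127 and 115 in the GFP-negative control libraries and 75.0, 44.1 and 64.4 in the GFP-negative SIX2 libraries, also apart, with a change of -1.17 (SE 0.28, adjusted p = 0.0068). In GFP-positive cells Kcnc1 read 91.8, 56.5 and 92.0 in the GFP-positive control libraries and 91.1, 60.4 and 65.1 in the GFP-positive SIX2 libraries, which overlapped, with a change of -0.14 (adjusted p = 0.777).

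Other voltage-gated alpha subunits did not pass. Kcnq5, which encodes a Kv7 pore of the kind that holds the membrane near rest, read 30.6 to 95.5 with changes of -0.04 and 0.59. Kcnh2, the ERG1 pore, read 39.3 to 108 with changes of -0.64 and -0.36. Kcna7 read 9.94 to 35.4, and the silent subunit Kcns3 read 0 to 37.5. Kcns3 reached a count of 10 in 3 libraries, all with the SIX2 label, so it passed the filter only through the label in which it was high, and its changes are not read as results.

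Among the calcium-activated potassium channels, Kcnn3 was lower in both fractions and Kcnn4 was higher in GFP-positive cells. Kcnn3 (chr3:89520164-89675132) encodes the small-conductance SK3 channel, which appears in immature and denervated muscle. It read 2097, 2226 and 2366 in the GFP-negative control libraries and 1535, 1531 and 1436 in the GFP-negative SIX2 libraries, and 2957, 2714 and 2777 in the GFP-positive control libraries and 1718, 1666 and 1972 in the GFP-positive SIX2 libraries. The labels did not overlap in either fraction and the log2 changes were -0.57 (SE 0.08, adjusted p = 0.00016) and -0.66 (SE 0.08, adjusted p = 6.16e-05). Kcnn4 (chr7:24370263-24386690) encodes the intermediate-conductance channel of proliferating cells and read 315, 346 and 224 in the GFP-positive control libraries and 500.2, 474 and 428 in the GFP-positive SIX2 libraries. It was higher by 0.68 (SE 0.18, adjusted p = 0.0141) without overlap, a call lost without control replicate 3 (adjusted p = 0.0577). In GFP-negative cells it read 514, 379 and 338 in the GFP-negative control libraries and 520.5, 574 and 458 in the GFP-negative SIX2 libraries, where the groups overlapped and the change of 0.35 did not pass (adjusted p = 0.166). The other genes of the class opened by calcium or other ions were Kcnn1, the large-conductance Kcnma1 and Kcnu1. They ranged over 40.9 to 166, 0 to 39.3 and 0 to 19.7, and none passed.

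The two-pore genes, which carry background current, had 2 of 4 members higher in each fraction, beside 13.6% and 12.1% of all genes. The 4 include Kcnk1, which passed the filter only through the GFP-negative SIX2 libraries. Kcnk2 (chr1:189207930-189402273) encodes TREK-1, a leak channel gated by stretch and lipids. It read 30.0, 37.3 and 18.8 in the GFP-negative control libraries and 81.4, 94.8 and 90.8 in the GFP-negative SIX2 libraries, a 3.14-fold rise and a log2 change of 1.65 (SE 0.30, adjusted p = 0.00125). In GFP-positive cells it read 11.5, 15.5 and 11.0 in the GFP-positive control libraries and 53.6, 50.7 and 44.0 in the GFP-positive SIX2 libraries, a 3.72-fold rise of 1.90 (SE 0.30, adjusted p = 0.000585) on the log2 scale. The lowest SIX2 library was above the highest control library in both fractions. Kcnk2 also shares exon bases with an opposite-strand gene, A430027H14Rik, whose reads cannot be told apart from its own.

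Kcnk5 (chr14:20140057-20181809) encodes TASK-2, a leak channel opened by alkaline pH. It read 107, 64.2 and 93.8 in the GFP-negative control libraries and 203, 111 and 131 in the GFP-negative SIX2 libraries, and 77.3, 61.4 and 68.3 in the GFP-positive control libraries and 138, 113 and 114 in the GFP-positive SIX2 libraries. The groups were separate, though narrowly in GFP-negative cells where 1 SIX2 library stood far above the others, and the log2 changes were 0.72 (SE 0.25, adjusted p = 0.0471) and 0.81 (SE 0.25, adjusted p = 0.033). The GFP-negative call was lost without SIX2 replicate 1, when the change was 0.47 (adjusted p = 0.198), and also without SIX2 replicate 3 or control replicates 2 or 3 (adjusted p = 0.0734 to 0.195). In all it was lost in 9 of the 12 omissions of a single library, some of them GFP-positive. It was also lost without the filter (adjusted p = 0.0793) and with only the compared libraries (adjusted p = 0.0639). The GFP-positive call was lost without any of its SIX2 replicates or without control replicates 2 or 3 (adjusted p = 0.0527 to 0.0991). Without the filter the GFP-positive call was lost too (adjusted p = 0.0569). Kcnk13, which encodes the THIK-1 leak channel, went the other way in GFP-negative cells. It read 1140, 1094 and 1238 in the GFP-negative control libraries and 815, 956 and 926 in the GFP-negative SIX2 libraries, with a change of -0.37 (SE 0.10, adjusted p = 0.013) that did not pass once the trend with GC content was removed (-0.26, adjusted p = 0.0882), nor without control replicate 3 (adjusted p = 0.0570) or SIX2 replicate 1 (adjusted p = 0.0560). In GFP-positive cells the change was -0.14 (adjusted p = 0.32).

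Kcnk1, the TWIK-1 gene, was the 1 member that reached a count of 10 in libraries of a single group only. It read 10.7, 10.5 and 12.6 in GFP-negative SIX2 libraries and 2.14, 0.793 and 0 in GFP-negative control libraries, so it passed the filter only through the group in which it was high, and no test of it is given.

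Inward rectifiers and auxiliary subunits showed no call. Kcnj11, the pore of the ATP-sensitive channel, read 53.6, 58.7 and 62.8 in the GFP-negative control libraries and 40.0, 45.4 and 39.1 in the GFP-negative SIX2 libraries. These did not overlap, yet the change of -0.48 (SE 0.28) did not pass (adjusted p = 0.226), and in GFP-positive cells it was 0.15. Abcc8, which encodes the regulatory sulfonylurea receptor of that channel and is outside the name rule, was lower in both fractions, with log2 changes of -0.73 (SE 0.13, adjusted p = 0.00113) and -0.59 (SE 0.13, adjusted p = 0.00586). Kcnj12, the Kir2.2 pore, read 8.41 to 36.5 and had log2 changes of -0.62 and -0.06 that did not pass. The beta subunits Kcnab1, Kcnab2 and Kcnab3 and the single-span subunit Kcne1 read 2.14 to 23.4, 27.5 to 78.5, 10.7 to 46.8 and 4.43 to 35.0.

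Kcnq1ot1, the antisense RNA of the imprinted Kcnq1 locus, read 580.5, 612 and 535 in the GFP-negative control libraries and 1295, 765 and 1036 in the GFP-negative SIX2 libraries. It was higher with the SIX2 label in GFP-negative cells, with a log2 change of 0.81 (SE 0.19, adjusted p = 0.00665) and no overlap. In GFP-positive cells it read 786, 716 and 659 in the GFP-positive control libraries and 623, 853 and 1070 in the GFP-positive SIX2 libraries, where the groups overlapped and the change was 0.21 (adjusted p = 0.493). The Kcnq1 channel gene itself did not pass the filter, with a highest library of 15.5.

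**Figure D4:**
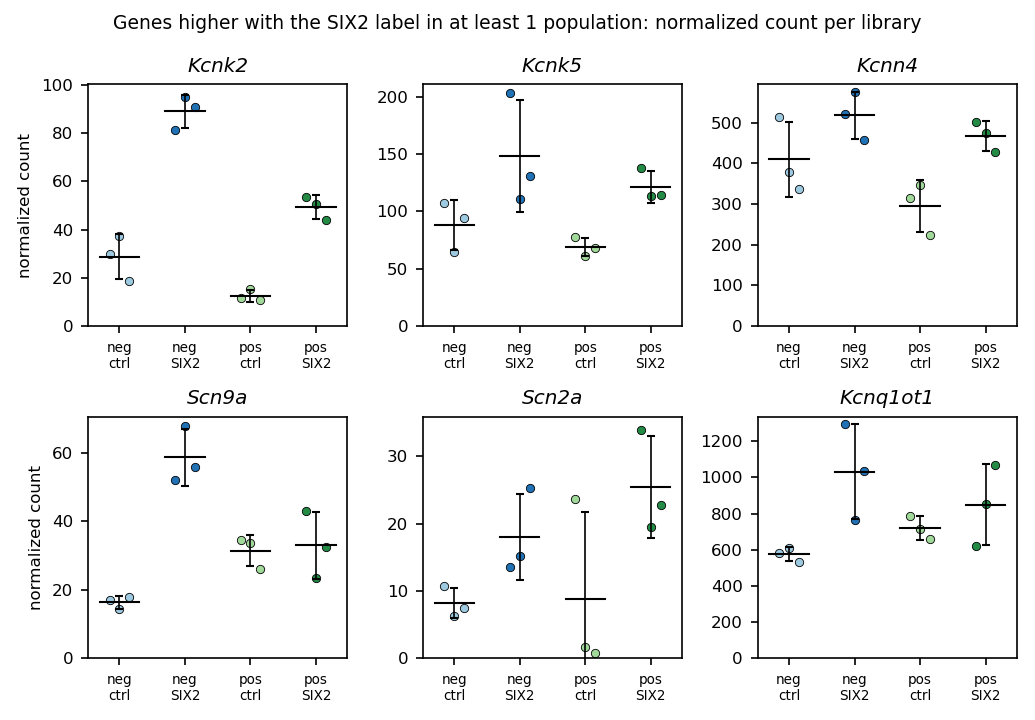
Normalized count in each library for channel genes called higher with the SIX2 label in at least 1 fraction, with 3 points and the mean and SD for each of the 4 groups. Kcnk2 SIX2 libraries lie at 44.0 to 94.8 and its control libraries at 11.0 to 37.3.

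The channel genes of the highest level that were called with the plasmid label were all lower in the SIX2 libraries. In mean level classes drawn after the values were seen, 10 channel genes had a mean normalized count over 1000, and in the GFP-negative fraction 9 of the 10 were lower and 0 higher. Among all 4312 genes of that level, 1115 were lower, 628 were higher and 40.4% were called. In the GFP-positive fraction 6 of the 10 were lower and 0 higher, beside 945 lower and 564 higher of the 4312 (35.0% called). Of the 15 channel genes between 50 and 1000, 2 were higher and 2 lower in each fraction (26.7%). Of all 7017 genes of that level, 1158 were higher and 876 lower in GFP-negative cells (29.0% called). In GFP-positive cells 1068 were higher and 587 lower (23.6% called). Of the 22 under 50, 2 were higher and 1 lower in GFP-negative cells, and 2 were higher and 0 lower in GFP-positive cells (13.6% and 9.09%). Of all 3251 genes of that level, 199 were higher and 99 lower in GFP-negative cells (9.17% called). In GFP-positive cells 128 were higher and 102 lower (7.07% called). The median standard error of the channel genes was 0.67 on the log2 scale in the lowest class and 0.09 in the highest, so small changes of low genes were not detectable at this depth.

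**Figure D5:**
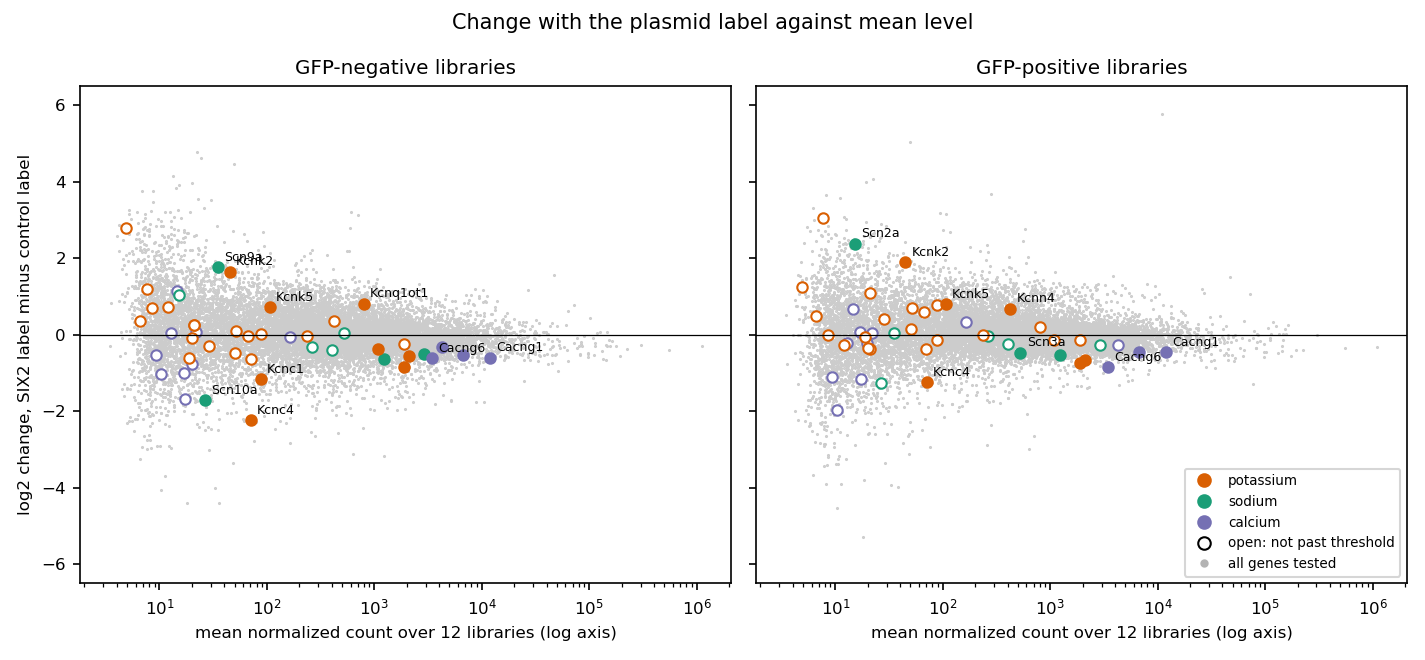
Log2 change, SIX2 minus control, against mean normalized count on a log axis, for all 14580 genes tested in grey and the 47 channel genes in colour, in 1 panel for each sorted fraction. The 10 channel genes with means over 1000 include 9 called lower in GFP-negative and 6 in GFP-positive cells.

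Few channel genes were called between the sorted fractions when both carried the control label. In GFP-positive against GFP-negative control libraries 2 of 47 channel genes were higher and 0 lower, with 0.919% of all genes called higher, 2.56% lower and 3.48% in either direction. Kcnn3 was higher in the GFP-positive libraries, at 2816 ± 126 against 2230 ± 134 (mean ± SD, n = 3), which was 0.34 on the log2 scale (SE 0.08, limma-trend adjusted p = 0.0348). Cacng6 was higher at 4722 ± 244 against 3867 ± 267 (n = 3), a difference of 0.29 (SE 0.07, limma-trend adjusted p = 0.0407). The libraries of the fractions did not overlap for either gene, but both calls were lost without any 1 of the GFP-negative control libraries or GFP-positive control replicates 1 or 2 (adjusted p = 0.0558 to 0.188).

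2 further genes lay just outside the threshold in this comparison. Scn3a had a log2 difference of 0.58, GFP-positive minus GFP-negative control libraries (adjusted p = 0.0509) with no overlap, and passed in DESeq2 (adjusted p = 0.00738). Kcnk2 had a difference of -1.08 (adjusted p = 0.0665), at 11.5, 15.5 and 11.0 against 30.0, 37.3 and 18.8, again without overlap, and passed in DESeq2 (adjusted p = 0.0361). These comparisons share the control libraries with those of the plasmid labels, so the values stand side by side and are not independent of each other.

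With the SIX2 label no channel gene passed the threshold between the fractions. 0 of 47 were called higher or lower by limma-trend, beside 0.0137% and 0.178% of all genes (0.192% in either direction). An unadjusted p under 0.05 was found for 7 of the 47 and for 1893 of all 14580 genes. On recovered reads edgeR also called 0, and DESeq2 called 0 of the 29 channel genes to which it gave an adjusted p. The smallest adjusted p belonged to Kcnn3 (0.25, adjusted p = 0.215), whose ranges of 1666 to 1972 in GFP-positive and 1436 to 1535 in GFP-negative SIX2 libraries did not overlap.

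Whether the difference between plasmid labels was itself different in the 2 fractions was tested as an interaction. By limma-trend 0 of 47 channel genes passed, as did 0% of all 14580 genes. An unadjusted p under 0.05 was found for 6 channel genes and for 2437 of the 14580. edgeR called 0 of all genes, and DESeq2 called 562 of 10338 genes and 0 of 18 channel genes to which it gave an adjusted p. The 6 genes with the smallest p were Scn9a, Kcnc1, Scn3a, Kcnc4, Cacng6 and Kcnq1ot1, with differences of -1.74, 1.03, -0.51, 0.98, -0.23 and -0.61 on the log2 scale (GFP-positive effect minus GFP-negative effect). Scn9a had the smallest adjusted p, 0.0999, with a 95% interval of -2.67 to -0.81, and the others ranged up to 0.283. The calls made in 1 fraction only, such as Kcnc1 or Kcnn4, were thus not shown to differ between fractions.

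Genes that work beside the channels were read from lists. Of all genes tested, 14.3% were lower and 13.6% higher with the SIX2 label in GFP-negative cells. In GFP-positive cells 11.2% were lower and 12.1% higher. Of 40 excitability partners tested (ion pumps, other ion channels and channel regulators), 6 were higher and 13 lower in GFP-negative and 3 higher and 10 lower in GFP-positive cells, with medians of -0.02 and -0.13. The share called was 47.5% and 32.5%, beside 27.9% and 23.3% of all genes. The sodium pump beta1 gene Atp1b1, which keeps the sodium and potassium gradients, was lower in both fractions, with log2 changes of -1.03 (SE 0.12, adjusted p = 6.36e-05) and -1.14 (SE 0.12, adjusted p = 3.09e-05). Sntb1, a syntrophin scaffold, was lower at -0.61 and -0.70, and Ano10 fell by 0.53 and 0.30. The calcium-activated cation channel gene Trpm4 was lower at -0.75 and -0.76. Rem1, a small GTPase that holds back calcium channels through their beta subunit, was 2.46-fold and 2.58-fold higher (adjusted p = 0.000875 and 0.00074).

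Of 29 calcium store and triad genes, which couple the surface channel to calcium release, 17 were lower and 3 higher in GFP-negative and 12 lower and 3 higher in GFP-positive cells. Their medians were -0.33 and -0.30, and 69.0% and 51.7% were called, beside 27.9% and 23.3% of all genes. Casq2, a calcium-binding protein of the store, was lower at -0.50 and -0.53, and Stim1, the sensor of store filling, at -0.70 and -0.41. Jph2, which holds surface and store membranes together, read -0.85 (adjusted p = 0.000125) and -0.30 (adjusted p = 0.0716). Trdn, a partner of the release channel, read -0.20 (adjusted p = 0.0776) and -0.53 (adjusted p = 0.000331). The calcium pump gene Atp2a1 was higher in GFP-positive cells at 0.48 (adjusted p = 0.000922) and read 0.06 in GFP-negative cells.

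Muscle differentiation genes moved with the same label. Of 29 such genes, 25 were lower and 0 higher in GFP-negative and 21 lower and 0 higher in GFP-positive cells, with medians of -0.41 and -0.40. The share called was 86.2% and 72.4%, beside 27.9% and 23.3% of all genes. Of 14 muscle stem cell markers, 4 were higher and 5 lower in GFP-negative and 5 higher and 4 lower in GFP-positive cells (64.3% called in each). Their summed normalized counts were 313759 to 332439 in GFP-negative control, 224669 to 252053 in GFP-negative SIX2, 316502 to 337597 in GFP-positive control and 271956 to 301761 in GFP-positive SIX2 libraries. Much of each sum came from Des and Myog. The differentiation list also holds these genes, as well as Myod1 and Cdh15, so the 2 lists are not separate. Over the 14 markers the log2 changes ran from -2.06 to 1.41 in GFP-negative and from -2.82 to 1.63 in GFP-positive cells. Among the higher ones, Pax7, a marker of undifferentiated stem cells, stood at 0.58 and 0.79 (limma-trend adjusted p = 0.0481 and 0.0126). The part of these shifts in the channel gene calls was not tested.

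Markers of other cell types were read beside the channel genes, since neurons and glia express many of them. Of all genes tested, 27.9% were called with the plasmid label in GFP-negative and 23.3% in GFP-positive cells. Of 16 glial and neuronal markers 4 passed the filter, 2 of them were lower in each fraction (Erbb3 and Stmn2) and 0 were higher. Their sums were 4152 to 4894 in GFP-negative control, 2612 to 3379 in GFP-negative SIX2, 4084 to 4884 in GFP-positive control and 3443 to 3966 in GFP-positive SIX2 libraries. Erbb3 and Tubb3, the latter a neuronal marker, made up most of these sums. Of the other neuronal markers, Stmn2 passed the filter, whereas Elavl3, Elavl4 and Snap25 reached at most 2.41, 2.86 and 3.90.

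Of 10 fibro-adipogenic markers 5 passed and 2 (Col3a1 and Ly6a) were higher in each fraction, with sums of 4772 to 6238 and 6686 to 7302 in GFP-negative control and SIX2 libraries and 3980.5 to 5193 and 6565 to 6854 in the GFP-positive ones. Dcn reached at most 1.80. Of 10 pericyte and smooth muscle markers 9 passed, with 3 higher and 3 lower in GFP-negative and 4 higher and 2 lower in GFP-positive cells. Their sums of 216302 to 245152, 153981 to 168595, 215556 to 234850 and 188607 to 205082, in the order of the groups above, were mostly Des and Acta2, genes that muscle cells also express, and Myh11 reached at most 8.93. Of 10 endothelial markers 1 passed, Vwf, which was lower in both fractions, and the list summed to 22.9 to 138. Of 10 immune markers 5 passed, of which Csf1r was higher in both fractions, and the list summed to 189 to 253. The part of these cells in the channel gene values was not tested.

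The level of GC-rich genes went with the label in the GFP-negative fraction. In the tenth of genes richest in GC, the median log2 deviation from each gene's mean was 0.06 to 0.13 in GFP-negative control and -0.11 to -0.04 in GFP-negative SIX2 libraries. In the GFP-positive fraction the ranges overlapped, at 0.00 to 0.09 in control and -0.07 to 0.08 in SIX2 libraries. With the trend of each library with GC content removed, 1 of the channel gene calls in the plasmid comparisons, Kcnk13, was lost. 16 of the 47 genes share exon bases with a gene on the opposite strand, and the library method as described keeps no strand.

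56 channel rows did not pass the filter. 42 of these never reached 10 in any library, and 14 did in at least 1: Cacna1d, Cacna1g, Cacna1i, Kcng2, Kcnh5, Kcnh6, Kcnh7, Kcnip3, Kcnj2, Kcnk7, Kcnq1, Kcnrg, Kcnt2 and Kcnv2. Their highest value was 19.3, for the low-voltage-activated calcium pore Cacna1g in 1 GFP-negative control library. Kcnj2 and Kcnh1, potassium channels known from the hyperpolarization of human myoblasts, read 0 to 13.6 and 0 to 2.14 over the 12 libraries, and the gamma subunit Cacng7 read 0 to 3.90. 30 of the 47 genes that passed had at least 10 in all 12 libraries.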

How the data were processed

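RNA-seq was read from 12 libraries in 4 groups of 3, grouped by their titles. The authors deposited 1 table of normalized counts (unit signal: gene counts divided by a size factor per library). The submitters' processing notes list STAR 2.7.11a, RSEM 1.3.3, DESeq2 1.42.0, FastQC 0.12.1, MultiQC 1.19 and the build GRCm38. How the genes were counted is not given in the sources used here. Within each library, 100% of the deposited values were whole multiples of the smallest value above 0 (tolerance 0.0001 reads), so whole reads were recovered. No replicate pair agreed within sampling noise (chi-square per degree of freedom 7.71 to 49.4).

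Genes with at least 10 in at least 3 libraries (14580 of 23586) were tested with limma-trend (R 4.3.3, limma 3.58.1). The values were log2(normalized count + 1), and the model had 4 group means over all 12 libraries, 5 contrasts and Benjamini-Hochberg adjustment over all genes of each contrast. A fold is on that scale and understates changes of low genes. edgeR 4.0.16 and DESeq2 1.42.0 on the recovered reads were alternatives. edgeR called 4064 and DESeq2 4499 genes for the plasmid label in GFP-negative cells (3299 and 3698 in GFP-positive). The limma-trend step was tested on simulated counts with known changes. Coordinates and exon lengths came from GENCODE M21 (GRCm38) by gene ID, which matched all 103 channel rows. Promoter windows came from RefSeq, GRCm38.p6.

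The channel genes, the partner and marker lists and the tests were chosen with earlier results of these data known. Named are all members past the threshold, fixed channel genes of known interest, the 2 highest of each class without a call, up to 4 called members of each partner list by smallest p, and the 6 smallest p of the interaction. Some genes that this rule names are not reported here, though counts over all genes include them. Kcnq1 is named beside Kcnq1ot1, and other single values were named after being seen.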

Additional observations from a re-analysis of the deposited data

Results flagged for a closer look

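Scn9a stood out because its difference between the sorted fractions pointed in opposite directions under the 2 plasmid labels. Under the control label every GFP-positive library (26.2 to 34.4) lay above every GFP-negative library (14.3 to 17.8). Under the SIX2 label every GFP-positive library (23.4 to 42.9) lay below every GFP-negative library (52.1 to 67.8). The log2 difference of the differences was -1.74 (SE 0.43, limma-trend adjusted p = 0.0999), which did not pass the threshold, so the test did not show the reversal. The values rest on 8 to 19 reads per GFP-negative control library and 73 to 103 per GFP-negative SIX2 library. The GFP-positive libraries held 31 to 61 with the control label and 12 to 24 with the SIX2 label.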

How the results depend on the processing

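Of the 30 calls on channel genes in the 4 two-group comparisons, 18 were kept under all 11 other settings and all 12 omissions of a single library, 12 were lost under at least 1, and 0 reversed. Kept in both fractions were Cacnb1, Cacng1, Cacng6, Kcnc4, Kcnf1, Kcnk2 and Kcnn3, and among those kept in GFP-negative cells were Kcnc1, Kcnq1ot1 and Scn9a. Without the filter on low values, the genes higher with the SIX2 label in GFP-positive cells went from 4 to 2 and those higher in GFP-positive control libraries from 2 to 1. The latter were also 1 with only the compared libraries in the fit. DESeq2 added 1 gene lower in GFP-positive control libraries (Kcnk2). The cause of these differences was not tested.

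Replicate numbers did not pair the libraries: 0 of 18 same-numbered pairs deviated together with r over 0.1, and 1 of 12 libraries correlated best with its own number. With the replicate block, channel genes lower with the SIX2 label were 11 in GFP-negative and 6 in GFP-positive cells, those higher in GFP-positive control libraries were 0, and all genes called in that last comparison went from 507 to 298. The channel gene calls lost with the block were Scn10a in GFP-negative cells (adjusted p = 0.0516), Scn3a (adjusted p = 0.0585) and Scn4a (adjusted p = 0.0710) in GFP-positive cells, and Cacng6 (adjusted p = 0.0752) and Kcnn3 (adjusted p = 0.0625) between control fractions.

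Leaving out each library in turn gave 3 to 5 channel genes higher and 9 to 13 lower with the SIX2 label in GFP-negative cells. In GFP-positive cells it gave 1 to 4 higher, with 1 without control replicate 3 and 2 without control replicate 2 or any SIX2 replicate, and 6 to 9 lower. For GFP-positive against GFP-negative control libraries it gave 0 to 3 higher and 0 to 1 lower. The higher count was 0 without any GFP-negative control replicate, GFP-negative SIX2 replicate 2 or GFP-positive control replicates 1 or 2. The 1 lower gene, without GFP-positive control replicate 3, was Cacna2d1 (-0.37, adjusted p = 0.0224). The other counts stayed at 0. Over all genes, DESeq2 called 1087 in place of 507 in the control-label comparison of fractions, 292 in place of 28 in the SIX2-label one and 562 in place of 0 for the interaction, which was 5 after thinning to the smallest library, 171 without GFP-positive control replicate 3 and 56 without GFP-positive SIX2 replicate 3.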
